A study of Mus musculus with 27 samples.

Results

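The genes Cxcl9, Cxcl10 and Cxcl11 are named for the chemokines that bind CXCR3, a receptor of activated T cells and natural killer cells. In the C57BL/6J assembly Cxcl11 is listed as a transcribed pseudogene. These genes were taken by name from the nCounter panel and make up 3 of its 57 genes with values, out of 67 listed. The samples were donor monocyte-derived cells of the small intestine, 1 sample per recipient mouse and 27 mice in all. Bone marrow CD11b+Ly6C+ monocytes of C57BL/6 WT donors were injected into C57BL/6 CCR2-/- recipients, whose own monocytes lack the receptor needed to leave the bone marrow in numbers. In manipulated recipients the small intestine had been handled surgically on the day before the transfer, under anaesthesia, through an abdominal incision and with an analgesic in the drinking water. They gave 5, 4 and 4 mice at days 1, 2 and 5 after transfer. Non-manipulated recipients had no surgery and gave 5, 5 and 4 mice at the same days. No operated group without intestinal handling was among these samples, so effects of handling and of the operation as a whole cannot be told apart. From each mouse 100 donor-derived CD64+ cells were sorted, and their cDNA was pre-amplified and counted with barcoded probes.

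CXCL9, CXCL10 and CXCL11 belong to the CXC chemokines and direct CXCR3-bearing lymphocytes into inflamed tissue. All are induced by interferon gamma, a cytokine of activated T cells and natural killer cells. They are not induced alike: Cxcl9 is known for its dependence on interferon gamma, whereas Cxcl10 also answers to type I interferons and to NF-kB, the transcription factor of innate receptor signalling. In the gut, macrophages and dendritic cells are among their sources.

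The genes lie side by side on mouse chromosome 5. In RefSeq on build GRCm38.p6, Cxcl9 spans chr5:92321331-92328079, Cxcl10 spans chr5:92346638-92348889 and Cxcl11 spans chr5:92359544-92363296. RefSeq lists Cxcl9 and Cxcl10 as protein coding. It lists Cxcl11 as a transcribed pseudogene in this assembly, which represents C57BL/6J, so a Cxcl11 value here is a transcript count and says nothing of a protein. The 250 bases before the start site of Cxcl9 and of Cxcl10 are shown as background. The genes are known to differ in the factors that induce them, and a link of these sequences to the counts was not tested. Both are from RefSeq, GRCm38.p6, minus strand, written 5′ to 3′, at chr5:92328080-92328329 for Cxcl9 and chr5:92348890-92349139 for Cxcl10.
Cxcl9: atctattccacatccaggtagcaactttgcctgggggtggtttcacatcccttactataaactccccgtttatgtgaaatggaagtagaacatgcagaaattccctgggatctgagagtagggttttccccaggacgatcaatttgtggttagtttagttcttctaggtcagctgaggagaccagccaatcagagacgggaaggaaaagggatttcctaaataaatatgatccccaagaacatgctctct
Cxcl10: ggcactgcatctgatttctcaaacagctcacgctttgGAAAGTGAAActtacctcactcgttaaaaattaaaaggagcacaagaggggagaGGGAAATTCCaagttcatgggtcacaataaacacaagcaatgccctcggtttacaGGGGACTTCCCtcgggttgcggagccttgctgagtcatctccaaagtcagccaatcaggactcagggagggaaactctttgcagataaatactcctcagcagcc
Capitals mark matches, on either strand, to 1 of 3 motifs: the interferon-stimulated response element (ISRE, GAAANNGAAA), the gamma-activated site (GAS, TTCNNNGAA) and the kappaB motif of NF-kB. The kappaB motif was read as GGG, A or G, any base, any base, C or T, C or T and CC, in that order. The Cxcl10 window held 1 ISRE match, GAAAGTGAAA, at bases -213 to -204 from the start site. It also held kappaB matches at -159 to -150 and, as overlapping matches, at -104 to -94. The Cxcl9 window held no match to any of the 3 motifs, which says only that these exact letters are not in it. Inexact matches and other sites of interferon or NF-kB signalling were not searched for. Among 32851 promoter windows of this length, 2.98% held an ISRE match, 7.02% a GAS match and 7.25% a kappaB match.

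Levels are given as scaled counts, the count of a lane divided by the geometric mean of its housekeeping genes Actb, Gapdh and Rpl19 and brought back to count units with the average of that geometric mean over 27 lanes. The background of a lane, the mean plus 2 SD of its negative-control probes, lay between 14.9 and 49.8 counts. Totals over the 57 genes ran from 597997 to 1347007 counts with a median of 1077366, and 54 to 57 genes per lane were above background. Of 7 listed macrophage markers 6 were measured, and their summed level was 122193 to 398409 scaled counts over all mice. Cd14 and Spi1 had the highest medians, at 81551 and 61412 scaled counts. Emr1 went down to 112 and Cd68 to 1528. The sum had no threshold and no other cell type beside it, so it does not test the labelled cell type. Of the dendritic cell markers only Ccr7 had values, and 0 markers of neutrophils, lymphocytes, epithelium or stroma were on the panel. Lower counts of a transcript can come from fewer cells that make it or from less RNA in each, and these cannot be told apart in pools of 100 cells.

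The chemokine genes were read at very different heights. Cxcl10 was above background in 27 of 27 samples and above 3 times the background in all of them. Cxcl9 was above background in 27 samples and above 3 times the background in 20. Cxcl11 was above background in 26 samples and above 3 times the background in 18. These heights depend on each probe and its pre-amplification, so only differences between samples are compared.

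Cxcl9 was lower in cells of manipulated recipients at every day. At day 1 it had 132, 48.7, 77.8, 84.5 and 65.0 scaled counts in mice 1 to 5 of the manipulated group. The non-manipulated group had 1544, 2757, 84.9, 4527 and 802. All manipulated mice lay close together, at 1.59 to 4.07 times the background of their lane. In the non-manipulated group mouse 3 was as low as the manipulated mice and the other 4 were far higher, so that the groups overlapped through 1 mouse.

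At day 2 Cxcl9 had 268, 57.2, 188 and 814 scaled counts in manipulated mice 1 to 4. Non-manipulated mice 1 to 5 had 1753, 1888, 5345, 1998 and 18497. Every manipulated mouse was below every non-manipulated mouse, and 14% of the 57 genes had groups that did not overlap and were lower in manipulated mice at this day. Mouse 5 of the non-manipulated group held the highest Cxcl9 value of the series.

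At day 5 Cxcl9 had 171, 887, 52.4 and 588 scaled counts in manipulated mice 1 to 4. Non-manipulated mice had 7700, 357, 5006 and 918. The groups overlapped, because non-manipulated mouse 2 was lower than manipulated mice 2 and 4. At day 5 the groups of 3.51% of the 57 genes did not overlap and were lower in manipulated mice, and at day 1 those of 12.3%.

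Cxcl10, the most abundantly counted of the chemokine genes, overlapped between the groups at every day. At day 1 it had 32322, 14959, 18335, 17773 and 10143 scaled counts in manipulated mice 1 to 5. Non-manipulated mice had 37048, 27736, 16177, 5731 and 79301. The lowest and the highest values both belonged to non-manipulated mice. Mouse 4 of that group, with the lowest Cxcl10, had the highest Cxcl9 of day 1.

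At day 2 Cxcl10 had 9160, 11221, 20039 and 20574 scaled counts in manipulated mice 1 to 4. Non-manipulated mice 1 to 5 had 18496, 19872, 41477, 16262 and 48636. At day 5 manipulated mice had 80099, 68236, 4851 and 29141, and non-manipulated mice had 83342, 131385, 37884 and 72750. Mouse 3 of the manipulated day 5 group held the lowest Cxcl10 of all 27 mice, and also the lowest Cxcl9 of its group.

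Cxcl11 was close to background in most manipulated mice, with 8 of 13 at no more than 3 times the background of their lane. At day 1 it had 521, 39.6, 83.4, 110 and 104 scaled counts in manipulated mice 1 to 5. Non-manipulated mice had 694, 1788, 79.2, 659 and 960. Manipulated mouse 1 came close to the higher non-manipulated mice, and non-manipulated mouse 3, which was also low in Cxcl9, was as low as the manipulated ones.

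At day 2 Cxcl11 had 221, 95.8, 92.6 and 48.0 scaled counts in manipulated mice 1 to 4. Non-manipulated mice 1 to 5 had 582, 1040, 3761, 70.1 and 531. All non-manipulated mice but mouse 4 were above all manipulated mice. At day 5 manipulated mice had 51.0, 49.3, 201 and 447 and non-manipulated mice had 544, 722, 80.6 and 814, with mouse 3 of the non-manipulated group inside the manipulated range. The value of manipulated mouse 2 at day 5 was 0.874 times its background, the only one of the 81 member values below background.

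**Figure D1:**
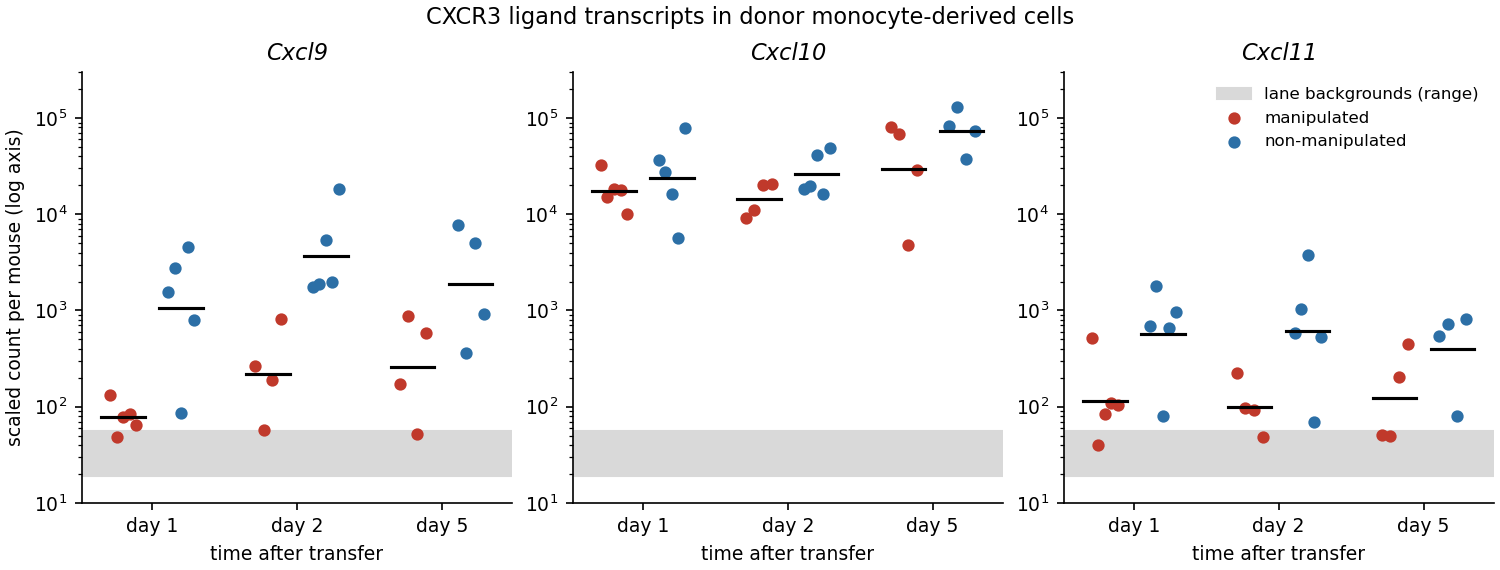
Scaled counts of Cxcl9, Cxcl10 and Cxcl11 (log axis) in each mouse at days 1, 2 and 5, manipulated recipients in red on the left and non-manipulated recipients in blue on the right of each day. Black lines are geometric means and the grey band is the range of lane backgrounds; only Cxcl9 at day 2 shows groups that do not overlap, and Cxcl10 stays far above the band in all 27 mice.

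Means over mice showed the same order with wide spreads. Cxcl9 averaged 81.6 ± 31.3 scaled counts in manipulated mice and 1943 ± 1750 in non-manipulated mice at day 1 (SD, n = 5 each). It averaged 332 ± 333 in manipulated mice (SD, n = 4) and 5896 ± 7202 in non-manipulated mice (SD, n = 5) at day 2. At day 5 it averaged 425 ± 384 in manipulated mice and 3495 ± 3486 in non-manipulated mice (SD, n = 4 each). Within the non-manipulated groups the highest value of Cxcl9 was 53.3, 10.5 and 21.6 times the lowest at days 1, 2 and 5.

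The difference between the arms was tested at each day with edgeR's quasi-likelihood test over all 57 genes and with Benjamini-Hochberg adjustment, at an adjusted p below 0.05. Cxcl9 and Cxcl11 passed as lower in manipulated mice at days 1 and 2, where 17.5% of genes did so at each day. At day 5 only Cxcl9 passed, beside 7.02% of genes. Among the 57 fold changes ranked from the lowest, Cxcl9 held ranks 1, 2 and 2 at days 1, 2 and 5, Cxcl11 held ranks 6, 3 and 4, and Cxcl10 held ranks 15, 14 and 8.

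The log2 fold difference of Cxcl9, manipulated over non-manipulated, was -4.57 ± 1.07 (SE, edgeR adjusted p = 0.00136) at day 1. It was -4.15 ± 1.15 (edgeR adjusted p = 0.0128) at day 2 and -3.04 ± 1.11 (edgeR adjusted p = 0.0452) at day 5. The median log2 fold difference of all 57 genes was -0.08, -0.05 and 0.59 at these days. Single mice moved the size of the difference: it was -3.99 without non-manipulated mouse 4 at day 1, and at day 2 -3.05 without non-manipulated mouse 5 or -5.11 without manipulated mouse 4, all still past the threshold. The call at day 5 was lost without mouse 1 or 3 of the non-manipulated or mouse 1, 3 or 4 of the manipulated group, with edgeR adjusted p of up to 0.149, and with limma on log2 values (-2.84, adjusted p = 0.0827).

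The log2 fold difference of Cxcl11 was -2.28 ± 0.91 (edgeR adjusted p = 0.0467) at day 1 and -3.38 ± 1.05 (edgeR adjusted p = 0.0222) at day 2. At day 5 it was -1.53 ± 1.00 (edgeR adjusted p = 0.290), with a 95% confidence interval of -3.58 to 0.53. The call at day 1 held without manipulated mouse 1 (-3.31) or non-manipulated mouse 3 and was lost without any other single mouse, with edgeR adjusted p of up to 0.127. At day 2 it was lost without non-manipulated mouse 3 (-2.28, edgeR adjusted p = 0.0735) or without mouse 2, 3 or 4 of the manipulated group. With limma on log2 values the day 1 call was lost at both pseudocounts run, 1 and 20 (adjusted p = 0.0558 and 0.0536). The day 2 call was lost at a pseudocount of 1 (adjusted p = 0.0520) and held at 20.

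For Cxcl10 the log2 fold difference was -0.83 ± 0.60 at day 1, -0.92 ± 0.64 at day 2 and -0.84 ± 0.67 at day 5. None of these passed the test, with edgeR adjusted p of 0.273, 0.287 and 0.387. The 95% confidence intervals, -2.06 to 0.40, -2.24 to 0.39 and -2.21 to 0.54, run from a fall of about 2 log2 units to a small rise.

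Averaged over the 3 days with equal weight, all 3 chemokine genes passed as lower in manipulated mice, as did 22.8% of the 57 genes. The mean log2 fold difference was -3.92 ± 0.64 for Cxcl9 (edgeR adjusted p = 1.83e-05) and -2.40 ± 0.57 for Cxcl11 (edgeR adjusted p = 0.00103). It was -0.86 ± 0.37 for Cxcl10 (edgeR adjusted p = 0.0478). The Cxcl9 and Cxcl11 calls held without any single mouse. The Cxcl10 call lay at the edge of the threshold and was lost when any of 16 of the 27 mice was left out, with a highest edgeR adjusted p of 0.117 without non-manipulated mouse 5 of day 1, and with the authors' scaling (-0.42, adjusted p = 0.369).

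**Figure D2:**
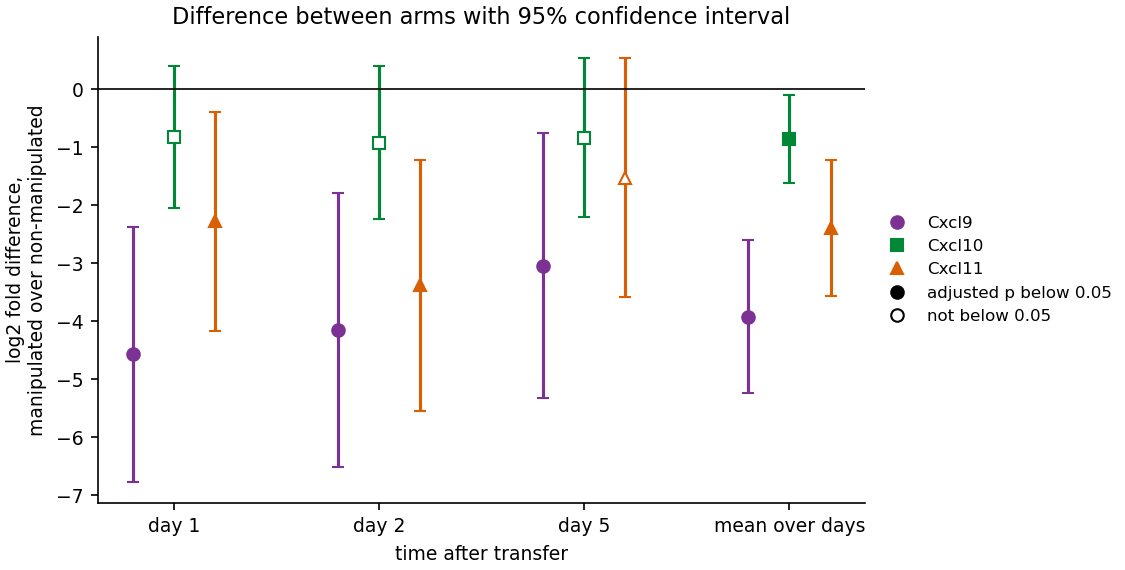
Log2 fold difference, manipulated over non-manipulated, of Cxcl9, Cxcl10 and Cxcl11 at each day and as the mean over days, with 95% confidence intervals from the edgeR fit. Filled symbols had an adjusted p below 0.05; Cxcl9 is filled at all 3 days, Cxcl11 at days 1 and 2, and Cxcl10 only in the mean over days.

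The deposited values of mice 3 and 4 of every group were multiples of 1.333, and those lanes were therefore also compared among themselves. Among the 12 lanes of mice 3 and 4 the mean log2 fold difference over days was -3.64 for Cxcl9 (edgeR adjusted p = 0.0135), -0.50 for Cxcl10 (0.382) and -2.39 for Cxcl11 (0.0515). Among the other 15 lanes it was -4.27 for Cxcl9 (edgeR adjusted p = 0.00104), -1.12 for Cxcl10 (0.0182) and -2.73 for Cxcl11 (0.00105). The direction was the same in both sets of lanes for each gene over the mean of days. By day, Cxcl9 was lower in both sets, at -4.83 and -4.37 at day 1, -2.87 and -5.50 at day 2, and -3.21 and -2.93 at day 5, with mice 3 and 4 given first. Cxcl11 differed in size, at -1.93 and -2.37, -4.77 and -2.18, and -0.46 and -3.65. Cxcl10 at day 1 stood at 0.72 in mice 3 and 4 and at -1.33 in the other mice, so its direction at that day was not shared.

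Across all 6 conditions the geometric mean of Cxcl9 was highest in non-manipulated mice at day 2, at 3657 scaled counts, followed by non-manipulated mice at day 5 with 1885 and at day 1 with 1056. Manipulated mice followed with 261 at day 5, 220 at day 2 and 77.2 at day 1. Cxcl11 had the same division, with 610, 574 and 401 in non-manipulated mice at days 2, 1 and 5 and with 123, 115 and 98.5 in manipulated mice at days 5, 1 and 2. For Cxcl10 the order mixed the arms: 74118 in non-manipulated mice at day 5 was followed by 29647 in manipulated mice at day 5. Next came 26077 and 23749 in non-manipulated mice at days 2 and 1, and then 17407 and 14347 in manipulated mice at days 1 and 2. Neighbours in each of these orders overlapped in their values.

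Between days 1 and 5 none of the chemokine genes passed the test in either arm, where 40.4% of genes changed in manipulated and 19.3% in non-manipulated mice. In manipulated mice the log2 fold difference of day 5 over day 1 was 2.38 ± 1.00 for Cxcl9 (edgeR adjusted p = 0.0605), 1.28 ± 0.63 for Cxcl10 (0.113) and 0.12 ± 0.93 for Cxcl11 (0.957). For Cxcl9 it passed without manipulated mouse 3 of day 5 (2.75, edgeR adjusted p = 0.0341) and with DESeq2 on housekeeping factors (2.38, adjusted p = 0.0190). In non-manipulated mice it was 0.85 ± 0.97 for Cxcl9 (edgeR adjusted p = 0.600), 1.29 ± 0.63 for Cxcl10 (0.143) and -0.63 ± 0.94 for Cxcl11 (0.688).

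The change of the arm difference itself, day 5 minus day 1, passed for none of the chemokine genes, beside 19.3% of genes. It was 1.53 ± 1.39 for Cxcl9 (edgeR adjusted p = 0.432, 95% confidence interval -1.33 to 4.39), -0.01 ± 0.89 for Cxcl10 (0.993) and 0.75 ± 1.31 for Cxcl11 (0.678). These intervals are too wide to say whether the difference between the arms narrowed.

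Ratios between the chemokine genes of 1 lane do not depend on how lanes are scaled. The log2 ratio of Cxcl9 to Cxcl10 at day 1 was -7.94, -8.26, -7.88, -7.72 and -7.29 in manipulated mice 1 to 5. In non-manipulated mice it was -4.58, -3.33, -7.57, -0.34 and -6.63. The manipulated mice lay within about 1 log2 unit of each other, and the non-manipulated mice spread over more than 7. Cxcl9 of these manipulated mice was at 1.59 to 4.07 times the background, which limits how far their ratios could fall or spread.

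At day 2 the ratio of Cxcl9 to Cxcl10 was -5.10, -7.62, -6.74 and -4.66 in manipulated mice 1 to 4. Non-manipulated mice 1 to 5 had -3.40, -3.40, -2.96, -3.02 and -1.39. The groups did not overlap, as was the case for 29.4% of the 1596 gene pairs of the panel in either direction, against 35.2% at day 1 and 19.4% at day 5. At day 5 manipulated mice had -8.88, -6.27, -6.53 and -5.63 and non-manipulated mice had -3.44, -8.52, -2.92 and -6.31, which overlapped. The difference of group means, manipulated minus non-manipulated, was -3.33, -3.19 and -1.53 at days 1, 2 and 5.

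For the ratio of Cxcl11 to Cxcl10 these differences were -1.88, -1.77 and -0.34, and the groups overlapped at every day. At day 5 the sign of this difference turned without manipulated mouse 1 (0.58) or 2 (0.45), or without non-manipulated mouse 4 (0.01). The ratio of Cxcl9 to Cxcl11 differed by -1.45, -1.42 and -1.19, again with overlap at every day, and at day 5 it was 0.05 without non-manipulated mouse 3. In manipulated mice 6 of 13 Cxcl9 and 8 of 13 Cxcl11 values were at most 3 times the background, which limits all these ratios. No test was made on the ratios.

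**Figure D3:**
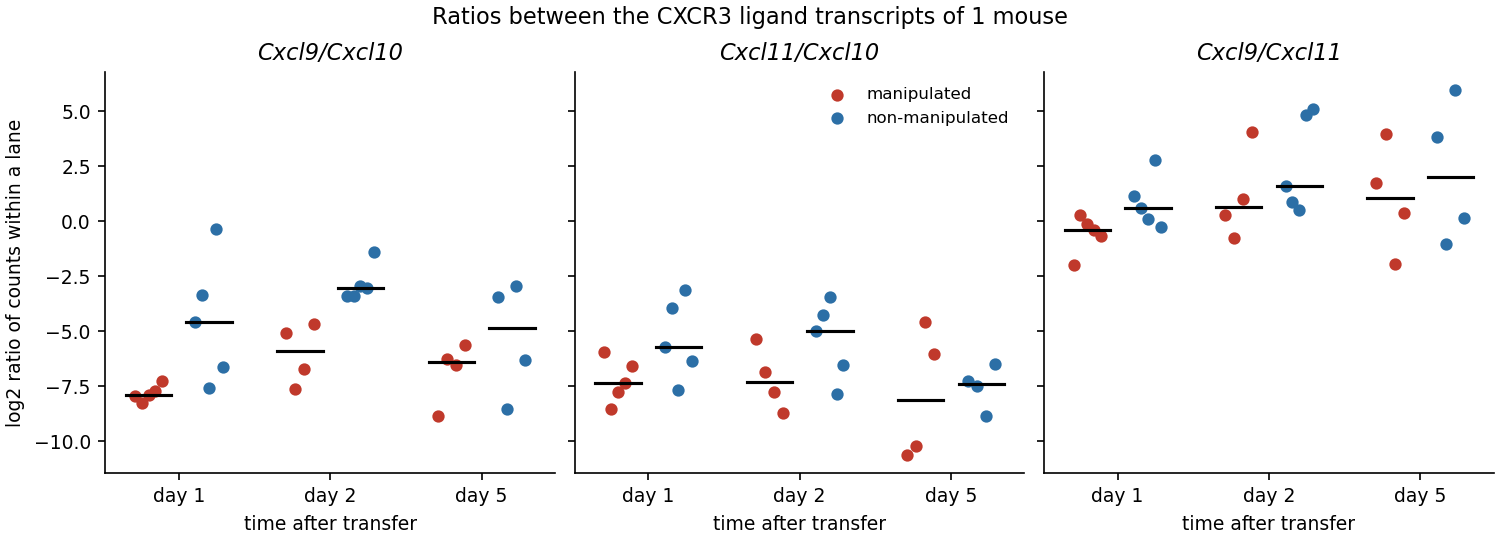
Log2 ratio of counts within a lane for Cxcl9 to Cxcl10, Cxcl11 to Cxcl10 and Cxcl9 to Cxcl11, 1 point per mouse, manipulated recipients in red on the left and non-manipulated recipients in blue on the right of each day, with group medians as lines. The arms separate without overlap only for Cxcl9 to Cxcl10 at day 2, where manipulated mice lie at -4.66 or below and non-manipulated mice at -3.40 or above.

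Over all 27 samples the chemokine genes were positively but not closely correlated with each other. Pearson's r of log2 scaled counts over the 27 samples was 0.546 for Cxcl9 and Cxcl11, 0.379 for Cxcl9 and Cxcl10 and 0.268 for Cxcl10 and Cxcl11. With the means of the 6 groups removed these fell to 0.189, 0.215 and 0.144. The arms differed: for Cxcl9 and Cxcl10 r was 0.561 within manipulated and -0.033 within non-manipulated mice. For Cxcl9 and Cxcl11 it was 0.002 and 0.256, and for Cxcl10 and Cxcl11 -0.224 and 0.262. In manipulated mice 6 of 13 Cxcl9 and 8 of 13 Cxcl11 values were at most 3 times the background, which limits r there. The genes most like Cxcl9 in their pattern were Ccr2 (r = 0.688), the chemokine receptor of Ly6C+ monocytes, Itgax (0.668), which encodes CD11c, and Irf4 (0.658), a transcription factor of myeloid cells. Those most like Cxcl11 were Ccr2 (0.551), Cxcl9 (0.546) and Itgax (0.511). Those most like Cxcl10 were Tgfb1 (0.555), H2-Ab1 (0.454) and Card9 (0.447), a cytokine, an MHC class II chain and an adaptor of fungal recognition. With the group means removed, r with Cxcl9 was 0.294 for Ccr2, 0.062 for Itgax and 0.173 for Irf4, and r with Cxcl11 was 0.130 for both Ccr2 and Itgax. With Cxcl10 it was 0.396 for Tgfb1, 0.140 for H2-Ab1 and 0.393 for Card9. All these values share lanes, housekeeping scaling and the division into 2 arms.

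Neither the interferon genes Ifng and Ifnb1 nor the receptor gene Cxcr3 was on the panel. Irf5, a transcription factor of interferon and innate receptor signalling, passed the test between the arms at no day. Of 10 other listed genes known to be induced by interferon, 3 had values, and Nos2 was on the panel but blank. H2-Ab1, which encodes an MHC class II chain, was lower in manipulated mice at day 1 (-2.08 ± 0.73, edgeR adjusted p = 0.0253). The call was lost with the authors' scaling (-1.15, edgeR adjusted p = 0.278), without Rpl19 (0.0544), with only the groups compared (0.0928) and in mice 3 and 4 (-0.81, 0.143), against -3.55 in the other mice. At day 2 H2-Ab1 stood at -1.98 ± 0.79 (edgeR adjusted p = 0.0529). It passed with TMM (-2.15, 0.0439), total counts, DESeq2 (-1.99, 0.0172), limma, only the groups compared and either block. It did not pass with the authors' scaling, without Rpl19, in mice 3 and 4 (0.0724) or in the other mice (0.0575). Leaving out any single mouse did not bring H2-Ab1 past the threshold at day 2 (edgeR adjusted p of 0.0567 to 0.146). At day 5 it stood at -1.31 ± 0.80 (edgeR adjusted p = 0.270) and passed with only the groups compared (0.0484) and in mice 3 and 4 (-1.69, 0.00817). Siglec-1, a sialic acid receptor of macrophages, stood at -1.84 ± 1.00 at day 1 (edgeR adjusted p = 0.140), with 1.16 in mice 3 and 4 and -7.30 in the other mice. It passed with limma (-3.62, adjusted p = 0.00556 at a pseudocount of 1), with DESeq2 on its own factors (-2.40, 0.0157) and without manipulated mouse 4 (-3.19, edgeR adjusted p = 0.0165), and ran from -3.19 to -0.62 as single mice were left out. Fcgr1, which encodes the sorting marker CD64, stood at -0.26 ± 0.38 at day 1 (edgeR adjusted p = 0.617) and at 0.51 with the authors' scaling. The median of the 3 genes was -1.84, 0.20 and 0.30 at days 1, 2 and 5, beside -0.08, -0.05 and 0.59 over all genes.

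Most of the other chemokine genes with values were higher in manipulated mice. Of 12 listed, 5 had values, and 3 of these were higher in manipulated mice at each day, where 24.6%, 14% and 17.5% of genes were. Cx3cl1 was on the panel but blank. Cxcl1, a neutrophil chemoattractant, was higher by a log2 fold difference of 3.90 ± 0.45 at day 1, 3.02 ± 0.45 at day 2 and 2.72 ± 0.48 at day 5. Ccl2, the ligand of CCR2, was higher by 2.80 ± 0.37, 1.97 ± 0.37 and 1.55 ± 0.39. Ccl7, another CCR2 ligand, was higher by 7.02 ± 0.93 at day 1 and 3.03 ± 0.79 at day 2 (edgeR adjusted p = 0.0128), and stood at 2.12 ± 0.83 at day 5 (edgeR adjusted p = 0.0602). The Ccl7 day 5 value passed with the authors' scaling (2.61, edgeR adjusted p = 0.0434), with DESeq2 on housekeeping factors (0.0163), with limma at a pseudocount of 20 (0.0476), in mice 3 and 4 (2.94, 0.00512) and without mouse 1 of either arm (2.90 without the non-manipulated mouse, 0.0238, and 2.49 without the manipulated mouse, 0.0287). The highest edgeR adjusted p of the Cxcl1 and Ccl2 differences was 0.00476. No Cxcl1 call was lost under any alternative run. The Ccl2 call at day 5 was lost with only the groups compared (edgeR adjusted p = 0.0922) and in the mice other than 3 and 4 (1.07, 0.431), where the day 2 calls of Ccl2 (1.85, 0.0575) and Ccl7 (2.53, 0.132) were lost too. Ccl8, a monocyte chemoattractant, also passed at day 5, beside Cxcl1 and Ccl2 (1.32 ± 0.34, edgeR adjusted p = 0.00476). Its median over all mice was only 110 scaled counts, and alternative runs were not read for it.

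Of the other chemokine genes only Ccl22, a ligand of CCR4, passed as lower in manipulated mice at any single day. It did so at day 2 (-2.04 ± 0.69, edgeR adjusted p = 0.0279). The call was lost without mouse 5 of the non-manipulated group or mouse 2, 3 or 4 of the manipulated group (at most 0.0832). It was also lost with the authors' scaling (-1.72, edgeR adjusted p = 0.0613) and in the mice other than 3 and 4 (-1.70, 0.223). The median of the 5 other chemokine genes was 2.80, 1.97 and 1.55 at days 1, 2 and 5. All 3 CXCR3 ligand genes had a negative log2 fold difference at each of these days.

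Of 4 listed NF-kB subunit genes 3 had values, and 0 of them passed at any day, with medians of 0.16, -0.10 and 0.65. Among cytokines listed for driving interferon gamma production, 1 of 4 had values, and Il12a, Il12b and Il18 were not on the panel. The 1 with values was Il23a, a subunit of interleukin 23. It was higher in manipulated mice at day 1 (4.78 ± 1.11, edgeR adjusted p = 0.00136) and passed at neither later day. Its level went down to 45.7 scaled counts, and alternative runs were not read for it. Il23a alone does not show how the listed cytokines changed as a class.

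**Figure D4:**
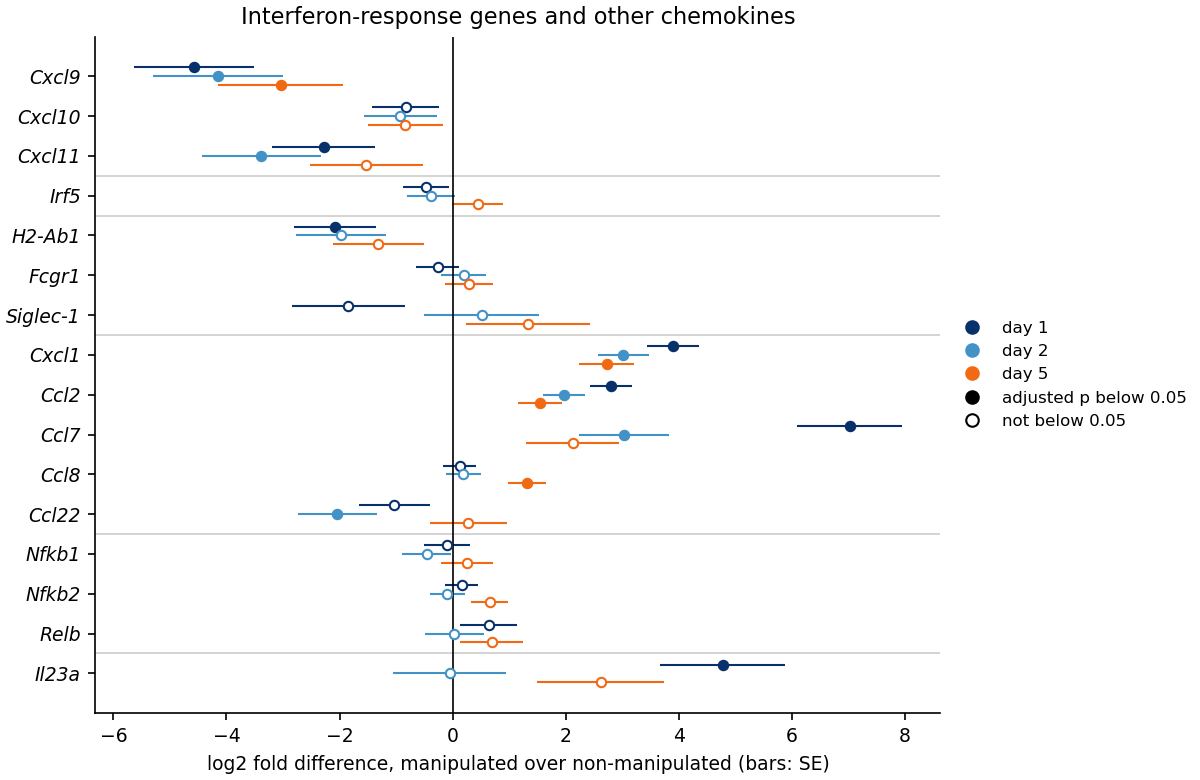
Log2 fold difference, manipulated over non-manipulated, with SE at days 1, 2 and 5 for, from top to bottom, the CXCR3 ligands, Irf5, other interferon-induced genes, other chemokines, NF-kB subunits and Il23a. Filled symbols had an adjusted p below 0.05; the CXCR3 ligands lie left of 0 at all days, and Cxcl1, Ccl2 and Ccl7 lie right of 0.

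Ccr7, the 1 listed dendritic cell marker with values, passed in no comparison of the arms. At day 2 it had 3017, 1526, 1137 and 2883 scaled counts in manipulated mice 1 to 4. Non-manipulated mice 1 to 5 had 17885, 6161, 1820, 2148 and 1093. The mice with the highest Ccr7 were mice 1 and 2 of the non-manipulated group, whereas the highest Cxcl9 and Cxcl10 of that day were in mouse 5, which had the lowest Ccr7. Day 5 went the other way in the non-manipulated group. There mice 1 and 3 were highest both in Ccr7, with 4806 and 3342, and in Cxcl9, with 7700 and 5006. Mice 2 and 4 had 2210 and 1384 for Ccr7 and 357 and 918 for Cxcl9. A link between Ccr7 and the chemokine genes was not tested.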

How the data were processed

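The 27 samples were grouped by title and by the day among their characteristics. A free-text description naming day 1 throughout was set aside. Mice of several experiments were pooled by the study, and no label says which mouse is from which. Raw values were used. In 15 lanes the authors deposited whole-number counts without normalization, of which 1 lane (manipulated day 1 mouse 5) held only even values and was divided by 2. For the 12 lanes numbered mouse 3 or 4 the authors deposited values that were whole multiples of 1.333 (tolerance 0.001), read here in the unit of an expected count and divided by that multiple. The reason is not given in the sources used here. The authors also deposited a housekeeping-normalized score, whose factor served as an alternative scaling. Pre-amplification took 16 cycles, which can change the counted proportions. Of 67 genes 10 were blank and 57 were tested, with no further filter. Symbols were matched to RefSeq by accession for 69 names and otherwise for 3.

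edgeR 4.0.16 (R 4.3.3) fitted all 27 samples with 6 group means and the housekeeping geometric mean as library size (quasi-likelihood F test, two-sided, Benjamini-Hochberg over 57 genes, threshold 0.05). The common biological coefficient of variation was 0.685 with 21 residual degrees of freedom. SE was the log2 fold change divided by the square root of F. The same steps were tested on simulated data. Alternatives were TMM, total-count and other housekeeping scalings, the authors' factor, DESeq2 1.42.0, limma 3.58.1 on log2(scaled count + 1) or + 20, values as deposited, counts raised to background, filters, fits of only the groups compared, blocks by mouse number or lane set, each lane set alone and leaving out each mouse. Ratios used counts raised to the lane background. No lanes were duplicates. The genes named were the CXCR3 ligands, the 3 genes most correlated with each, and lists of pathway genes and cell markers. Members and lists were chosen with earlier results of these data known. One gene of the panel is not reported here.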

Additional observations from a re-analysis of the deposited data

Results flagged for a closer look

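Mouse 5 of the non-manipulated day 2 group stood apart from the other 4 mice of its group in the log2 ratio of Cxcl9 to Cxcl10, at -1.39 against -3.40 to -2.96. It was the only sample to do so among 36 combinations of measure and group examined, and chance alone sets 1 sample apart in about 1 of 20 such groups. This mouse also had the highest Cxcl9 value of the series, and the Cxcl9 difference between the arms at day 2 was -3.05 without it, against -4.15 with it.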

How the results depend on the processing

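All values are log2 fold differences with adjusted p in brackets unless named otherwise. Cxcl9 at days 1 and 2 and Cxcl9 and Cxcl11 in the mean over days kept their direction and their call under every alternative scaling, tool, filter and block that was run and without any single mouse. The exceptions were the fits within 1 set of lanes, which hold fewer mice. There, within the lanes of mice 3 and 4, Cxcl9 stood at -4.83 (0.0816) at day 1, -2.87 (0.260) at day 2 and -3.21 (0.153) at day 5, Cxcl11 at -1.93 (0.390) at day 1, -4.77 (0.128) at day 2 and -2.39 (0.0515) in the mean over days, and Cxcl10 at 0.72 (0.556) at day 1 and -0.50 (0.382) in the mean. Within the lanes of the other mice Cxcl9 stood at -5.50 (0.0529) at day 2 and -2.93 (0.266) at day 5, and Cxcl11 at -2.18 (0.129) at day 2 and, now past the threshold, -3.65 (0.0353) at day 5.

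Calls near the threshold were lost under several settings, and the cause was not tested. Cxcl9 at day 5 was -2.96 (0.0504) with housekeeping scaling without Rpl19, -2.51 (0.112) with the authors' factor, -2.84 (0.0827) and -2.70 (0.0807) with limma at pseudocounts of 1 and 20, and -3.04 (0.0938) when only the groups compared were fitted. Cxcl11 at day 1 was -2.09 (0.0680) without Rpl19, -1.93 (0.102) with the authors' factor, -2.31 (0.0558) and -2.13 (0.0536) with limma, and -2.27 (0.0510) with the lane set as a block. Cxcl11 at day 2 was -2.79 (0.0506) with the authors' factor and -2.62 (0.0520) with limma at a pseudocount of 1. Cxcl10 in the mean over days was -0.66 (0.132) without Rpl19, -0.42 (0.369) with the authors' factor, -0.88 (0.0791) and -0.88 (0.0755) with limma, and -0.78 (0.0658) with the lane set as a block.

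Whether the mouse numbers pair samples of the 2 arms could not be settled. Over all genes the correlation of same-numbered mice exceeded 0.1 in 1 of 5, 3 of 4 and 1 of 4 pairs at days 1, 2 and 5. Its median was -0.022, 0.298 and -0.095 at these days. Mice of different numbers had medians of 0.025, -0.073 and 0.021, so only day 2 had higher values in same-numbered mice. With the mouse number as a replicate block, Cxcl9 at day 5 was -3.18 (0.0853), Cxcl11 at day 1 -2.53 (0.0591) and Cxcl10 in the mean over days -0.67 (0.145), and 7 genes passed between days 5 and 1 in non-manipulated mice; the block changed no other call of a CXCR3 ligand.

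Between days 5 and 1 in manipulated mice, Cxcl9 passed with DESeq2 at 2.17 (0.0294) on its own size factors and 2.38 (0.0190) on housekeeping factors, and at 2.38 (0.0386) when only the groups compared were fitted. Cxcl10 was -0.087 in mice 3 and 4 and 1.95 (0.0282) in the other mice. Cxcl11 changed sign, at -0.058 with total counts, -0.12 without Rpl19, -0.58 with the authors' factor, -0.088 with DESeq2 on its own factors and -2.14 in the other mice, and in non-manipulated mice at 0.27 in mice 3 and 4. The change of the arm difference of Cxcl10 was 0.12 with TMM, 0.11 with total counts, 0.26 with DESeq2 on its own factors and 0.79 in the other mice, and that of Cxcl11 was -1.29 in the other mice. At day 1 Siglec-1 was 1.16 in mice 3 and 4, and Fcgr1 was 0.51 with the authors' factor and 0.81 in mice 3 and 4. At day 5 the log ratio of Cxcl11 to Cxcl10 differed by 2.37 in mice 3 and 4, and that of Cxcl9 to Cxcl11 by 1.46 in the other mice.

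The number of genes past the threshold moved by over 1.5 times as follows. At day 1 it was 14 in mice 3 and 4 against 24 in all mice. At day 2 it was 6 in mice 3 and 4 and 3 in the other mice against 18. At day 5 it was 7 with only the groups compared, 24 in mice 3 and 4 and 8 in the other mice against 14. Between days 5 and 1 it was 14 with the authors' factor and 12 with only the groups compared against 23 in manipulated mice. In non-manipulated mice it was 18 with DESeq2 on either kind of factor, 7 with limma at a pseudocount of 20 and 19 in mice 3 and 4 against 11. For the change of the arm difference it was 6 with the authors' factor, 18 with DESeq2 on its own factors and 7 with limma at either pseudocount against 11.

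Leaving out 1 mouse at a time gave -3.69 to -2.30 for Cxcl9 at day 5, -3.31 to -1.80 for Cxcl11 at day 1, -3.92 to -2.28 for Cxcl11 at day 2 and -1.003 to -0.66 for Cxcl10 in the mean over days. For day 5 over day 1 in manipulated mice it gave 1.73 to 2.75 for Cxcl9, 0.87 to 1.66 for Cxcl10 and -0.77 to 1.15 for Cxcl11, and in non-manipulated mice 0.96 to 1.91 for Cxcl10. Past the threshold were the Cxcl9 and Cxcl10 values without manipulated mouse 3 of day 5 (2.75 and 1.66) and the Cxcl10 value without non-manipulated mouse 5 of day 1 (1.91). For the change of the arm difference the range was -0.62 to 0.37 for Cxcl10 and -0.14 to 1.78 for Cxcl11. The log ratio difference at day 5 ran from -1.43 to 0.58 for Cxcl11 to Cxcl10 and from -2.27 to 0.050 for Cxcl9 to Cxcl11. Genes past the threshold ran from 8 to 19 at day 2 and, between days 5 and 1 in non-manipulated mice, from 6 to 13.

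In manipulated mice 6 of 13 Cxcl9 values and 8 of 13 Cxcl11 values were at no more than 3 times the lane background, which limits how well the size of their fold differences is known. Raising counts to the background changed no call. Groups of 4 or 5 mice leave wide intervals for Cxcl10. Filters on low genes changed nothing, since all 57 genes were above background in at least 22 samples, and values as deposited gave the same calls for the CXCR3 ligands.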
